A study of Mus musculus with 12 samples.

Results

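Gene expression was compared between groups of samples labelled as ventricle tissue of mice. Fer-1+MI mice were given ferrostatin-1 before a coronary artery was tied, and MI mice had the tied artery alone. The samples were chosen by their labelled treatment, and they are 6 of the 12 of the series, 3 in each group, with all genes of the count table. All mice were labelled wild type, male, C57BL/6J and 6 to 8 weeks old. In both groups the left anterior descending coronary artery was permanently tied through an opened chest under pentobarbital. Fer-1+MI mice were also given ferrostatin-1 at 1 mg per kg per day, begun 24 h ahead of the surgery. The other samples are 3 given liproxstatin-1 at 3 mg per kg per day before the same surgery (Lip-1+MI) and 3 after a sham operation (Sham). Their values stand beside some results as context. The time between surgery and tissue collection, the part of the ventricle taken and any vehicle given to MI mice are not given in the sources used here, nor whether each sample is a separate animal. All p-values therefore measure the spread between samples, which may be in part technical.

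Ferroptosis is a form of cell death in which iron drives the peroxidation of polyunsaturated phospholipids in membranes. Gpx4 reduces these lipid peroxides with glutathione, whose synthesis depends on cystine brought in by Slc7a11, while Acsl4 and Lpcat3 place polyunsaturated fatty acids into phospholipids. Ferrostatin-1 is an aromatic amine that traps lipid radicals and so stops the chain reaction. After an artery is tied, heart muscle downstream of it dies, leukocytes enter, and fibroblasts divide, take on smooth muscle proteins and lay down a scar.

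Total counts per library were 46590134, 58900014 and 60156625 in Fer-1+MI, against 46722530, 60729562 and 48299306 in MI. CPM stands for counts scaled to library size with TMM, and FPKM, the length-corrected unit deposited by the authors, is used for levels between genes. Every gene identifier carries the Ensembl prefix for rat although the labels give mouse, so levels between genes carry an unknown error. Erythroid markers summed to only 19.2 to 28.9 FPKM in Fer-1+MI, 19.4 to 24.6 FPKM in MI and 32.7 to 40.3 FPKM in Sham. Whether species and tissue are as labelled was not tested. Heart muscle genes were high in all 6 samples, with 1105, 1284 and 1139 FPKM of Myh6, the alpha myosin heavy chain, in Fer-1+MI and 936, 1149 and 1059 FPKM in MI. Other defining genes of heart muscle were low, as Mb (myoglobin) lay between 23.5 and 33.8 FPKM in Fer-1+MI and between 22.6 and 31.2 FPKM in MI. The pan-leukocyte gene Ptprc lay between 3.05 and 4.14 FPKM in Fer-1+MI and between 3.71 and 4.25 FPKM in MI, and the T cell gene Cd3e was at 0 counts in all 6 samples. On the first principal component of the 6 samples, with 24.2% of the variance, Fer-1+MI samples lay at 7.99, 28.8 and 27.9 and MI samples at -39.4, -4.96 and -20.3. Replicate 1 of Fer-1+MI stood apart on the second component (21.7% of the variance) at 44.3, against 13.8 or less in the other 5 samples.

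Of 16910 genes tested, 907 (5.36%) passed an adjusted p of 0.05 in edgeR's quasi-likelihood test with Benjamini-Hochberg adjustment. They were 388 genes higher in Fer-1+MI (2.29%) and 519 lower (3.07%). The median log2 fold change was 0.32 among the higher genes and -0.34 among the lower ones, and 754 of the 907 differed by less than 1.5-fold. The samples of the groups did not overlap for 892 of the 907, against 3553 (21%) of all genes tested, of which 1655 (9.79%) were higher and 1898 (11.2%) lower. A change of at least 2-fold passed for 34 genes (0.201%), 19 higher (0.112%) and 15 lower (0.0887%), of which 5 had a whole group at 0 counts and so have no fold of known size. Without replicate 1, 2 or 3 of Fer-1+MI, 1071, 574 and 569 genes passed, and without replicate 3 of MI 582 passed.

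**Figure D1:**
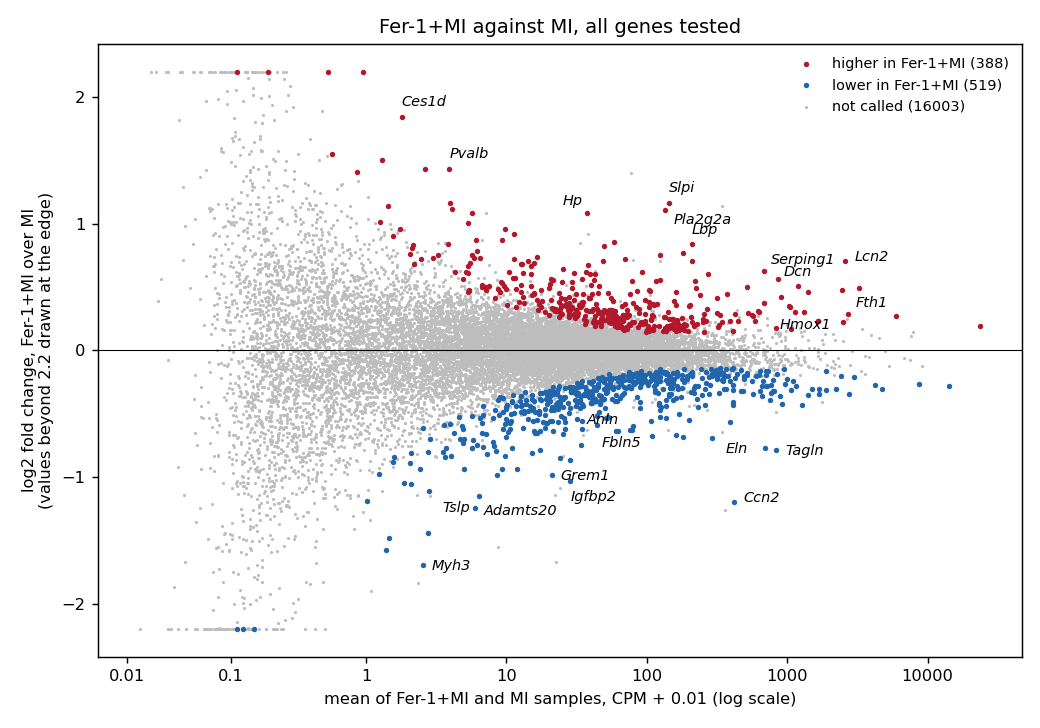
Fold change of every gene tested (vertical axis, log2 of Fer-1+MI over MI) against its mean level (horizontal axis, CPM + 0.01 on a log scale), with the 388 higher and 519 lower genes in colour. Most coloured points lie within 1.5-fold of no change, and the largest changes are among genes with low levels.

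Several secreted proteins of the acute-phase and innate immune response were among the named genes that were higher in Fer-1+MI. Lbp, which binds bacterial lipopolysaccharide, was at 273, 272 and 262 CPM in Fer-1+MI, against 144, 154 and 153 CPM in MI. No gene tested had a smaller p (log2 fold change 0.84 ± 0.04 SE, adjusted p = 5.49e-09, edgeR). Serping1, the inhibitor of complement C1, was at 846, 801 and 848 CPM in Fer-1+MI, against 525, 550.1 and 544 CPM in MI (0.62 ± 0.04, adjusted p = 7.09e-08). Within each group the samples of both genes lay close together, far from those of the other group.

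Slpi, an inhibitor of neutrophil elastase, was at 238, 169 and 192 CPM in Fer-1+MI, against 87.4, 88.4 and 91.2 CPM in MI. Its log2 fold change was 1.16 ± 0.16 (adjusted p = 0.00278, edgeR). Pla2g2a, a secreted phospholipase A2, was at 201, 166 and 187 CPM in Fer-1+MI, against 82.3, 77.7 and 95.9 CPM in MI (1.11 ± 0.14). In both genes the lowest Fer-1+MI sample stood well above the highest MI sample. Haptoglobin (Hp), which binds free haemoglobin, was at 59.0, 43.4 and 52.4 CPM in Fer-1+MI, against 26.1, 22.7 and 24.0 CPM in MI (1.09 ± 0.17). The acute-phase protein Orm1 was lower in level, between 4.92 and 5.95 CPM in Fer-1+MI and between 2.02 and 2.66 CPM in MI (1.17 ± 0.16). C3, the central complement protein, rose by less, 0.36 ± 0.07 (adjusted p = 0.00468).

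Mean levels in the context groups were 303 CPM of Lbp in Lip-1+MI and 343 CPM in Sham. For Serping1 they were 806 CPM in Lip-1+MI and 904 CPM in Sham, and for Slpi 181 CPM in Lip-1+MI and 169 CPM in Sham. The compounds were given at different doses and both are set against the same MI samples, so the values stand side by side and no comparison was made.

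The 15 largest rises without overlap, at a mean of at least 1 CPM, also included the carboxylesterases Ces1d and Ces1a. Ces1d was at 2.91, 2.35 and 3.15 CPM in Fer-1+MI, against 0.906, 0.424 and 1.04 CPM in MI (1.85 ± 0.27, adjusted p = 0.000332, edgeR). Its model overlaps that of LOC501233, and Ces1a belongs to the same family of close copies, so reads could be shared between them. Parvalbumin (Pvalb), a calcium buffer of fast muscle, was at 6.07, 4.94 and 6.19 CPM in Fer-1+MI, against 2.099, 1.59 and 2.71 CPM in MI (1.43 ± 0.18). The epithelial transcription factor Ehf was at 1.77, 2.37 and 1.66 CPM in Fer-1+MI, against 0.641, 0.695 and 0.703 CPM in MI (1.503 ± 0.31). The matrix protein Fbln7 was at 7.80, 7.60 and 7.87 CPM in Fer-1+MI, against 4.38, 3.29 and 3.33 CPM in MI (1.09 ± 0.14). All of these genes were at low levels, and their groups were apart in every sample. Among the smallest p, Zfand2a, a zinc finger protein induced by arsenite and proteotoxic stress, was at 62.8, 63.9 and 63.8 CPM in Fer-1+MI, against 37.0, 35.9 and 34.8 CPM in MI (0.82 ± 0.06). Atp1b2, a beta subunit of the sodium pump, rose by 0.67 ± 0.06 (log2). The rises of Myoc, Gsta5, LOC501233 and Kcne3, all under 8 CPM in every sample of both groups, each lost their call without single libraries.

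The 15 largest falls without overlap had log2 fold changes between -1.69 (Myh3) and -0.98 (Gpr84). Myh3, the embryonic myosin heavy chain, was at 1.28, 1.36 and 0.956 CPM in Fer-1+MI, against 2.76, 5.02 and 3.82 CPM in MI (-1.69 ± 0.29, adjusted p = 0.00146, edgeR). Adamts20, a secreted metalloprotease, was at 3.16, 3.49 and 3.92 CPM in Fer-1+MI, against 9.83, 7.77 and 7.57 CPM in MI (-1.25 ± 0.16). The epithelial cytokine Tslp was at 3.09, 3.85 and 4.93 CPM in Fer-1+MI, against 9.46, 7.90 and 9.06 CPM in MI (-1.15 ± 0.17). Between Myh3 and Adamts20 in size stood Crabp1 (-1.58), Doxl2 (-1.48) and LOC292543 (-1.44). For Myh3, Adamts20 and Tslp every Fer-1+MI sample lay below every MI sample. Keratin Krt7 fell by 0.99 on the log2 scale. Igfbp2, which binds insulin-like growth factors, was at 19.5, 20.3 and 16.6 CPM in Fer-1+MI, against 41.1, 41.3 and 33.0 CPM in MI (-1.03 ± 0.10). The receptor Gpr84 and the retinoic acid binding protein Crabp1 were below 1 CPM in all Fer-1+MI samples, and their calls were lost without single libraries.

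Of 80 genes of the extracellular matrix tested, 30 were lower in Fer-1+MI, 4 were higher and the others did not pass (42.5% called, against 5.36% of all genes tested), with a median log2 fold change of -0.13 against 0.00057 over all genes tested. By role, 10 of 16 collagen chains, 9 of 16 genes of elastic fibres and their crosslinking, 6 of 10 collagen processing genes and 4 of 13 glycoproteins were lower, and none of these was higher. Col1a1, the main chain of type I collagen, was at 13039, 12659 and 12932 CPM in Fer-1+MI, against 15259.6, 15328 and 16455 CPM in MI (-0.28 ± 0.04, adjusted p = 0.000245, edgeR). The median over collagen chains was -0.23, and the lowest value was -0.64.

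Over genes of elastic fibres and crosslinking the median was -0.29, with 14 of 16 below 0, and its difference from the collagen chains was not tested. Fbln5, which links elastin to cells, was at 82.7, 85.1 and 85.5 CPM in Fer-1+MI, against 139, 134 and 133 CPM in MI (-0.68 ± 0.05, adjusted p = 1.53e-07, edgeR). Elastin (Eln) fell by 0.77 on the log2 scale, Fbln2 by 0.69, and Fbn2, a fibrillin of developing elastic fibres, by 0.55. Mfap5, a protein of the fibrillin microfibril, was at 13.4, 13.3 and 15.9 CPM in Fer-1+MI, against 28.9, 24.9 and 30.8 CPM in MI (-0.99 ± 0.11). For all 5 genes the groups were apart in every sample. Sham means were 67.6 CPM of Fbln5, 452 CPM of Eln and 13.2 CPM of Mfap5.

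The 4 matrix genes that were higher were a pair of small proteoglycans, a calcification inhibitor and a protease. Mgp, which inhibits calcification, was at 4079, 3557 and 3701 CPM in Fer-1+MI, against 2711, 2637 and 2715 CPM in MI (0.49 ± 0.05, adjusted p = 7.69e-06, edgeR). Fmod (fibromodulin, which binds collagen fibrils) rose by 0.30 ± 0.04, decorin (Dcn) by 0.51 ± 0.06 and the gelatinase Mmp2 by 0.46 ± 0.05 (log2). With DESeq2 the matrix genes higher in Fer-1+MI numbered 7.

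Of 14 contractile proteins of smooth muscle and myofibroblasts tested, 9 were lower and none higher, with a median of -0.32 and all 14 below 0. None of 3 regulators of these genes (Myocd, Mrtfa and Srf) passed. Over all 17 genes 52.9% were called, against 5.36% of all genes tested. Tagln (transgelin, an actin-binding protein) was at 638, 579 and 632 CPM in Fer-1+MI, against 1065, 1011 and 1110.3 CPM in MI (-0.78 ± 0.06, adjusted p = 3.67e-07, edgeR). Tpm2, a tropomyosin, was at 329, 323 and 305 CPM in Fer-1+MI, against 486, 458 and 469.7 CPM in MI (-0.56 ± 0.05). Acta2, the smooth muscle actin, fell by less and was at 1712, 1698 and 1639 CPM in Fer-1+MI, against 1997, 2075 and 2183 CPM in MI (-0.31 ± 0.05). Samples of both groups were again apart for each of these genes. The Tagln model overlaps that of Sidt2 on the same strand, so reads could be shared between them. In bulk tissue, fewer cells of a type and less RNA per cell cannot be told apart. Of 11 mural cell markers 3 were lower (Tagln, Acta2 and Des, which are also contractile genes) and 1 was higher. Together they are 36.4% of the markers, against 5.36% of all genes tested. The count of lower members was 5 without replicate 1 of MI. The call of Des was lost under 8 of 16 alternatives, among them the omission of replicate 2 or 3 of either group. The summed level of the 11 markers was 2700 to 2790 FPKM in Fer-1+MI and 3290 to 3540 FPKM in MI. Of the 7 mural markers that are not on the contractile list, Abcc9 was higher, and Kcnj8 (0.31), Rgs5 (0.08), Pdgfrb (0.08), Mcam (-0.08), Notch3 (-0.19) and Cspg4 (-0.27) did not pass (log2 fold changes). The part of cell numbers in the fall was not tested.

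Focal adhesion genes, which join actin to the matrix, had 10 of 28 members lower and none higher (35.7% called, against 5.36% of all genes). The median was -0.16, with 27 of 28 below 0. The count was 6 without replicate 3 of Fer-1+MI. The actin crosslinker Flna was at 1120.3, 1061 and 1106 CPM in Fer-1+MI, against 1460.3, 1445 and 1527 CPM in MI (-0.43 ± 0.04, adjusted p = 9.19e-06, edgeR). Actn1, another crosslinker, fell by 0.41 on the log2 scale and the collagen receptor chain Itga11 by 0.57. Akap12, a scaffold of protein kinase A that is not on this list, was at 139, 144 and 132 CPM in Fer-1+MI, against 241, 216 and 209.5 CPM in MI (-0.68 ± 0.06).

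**Figure D2:**
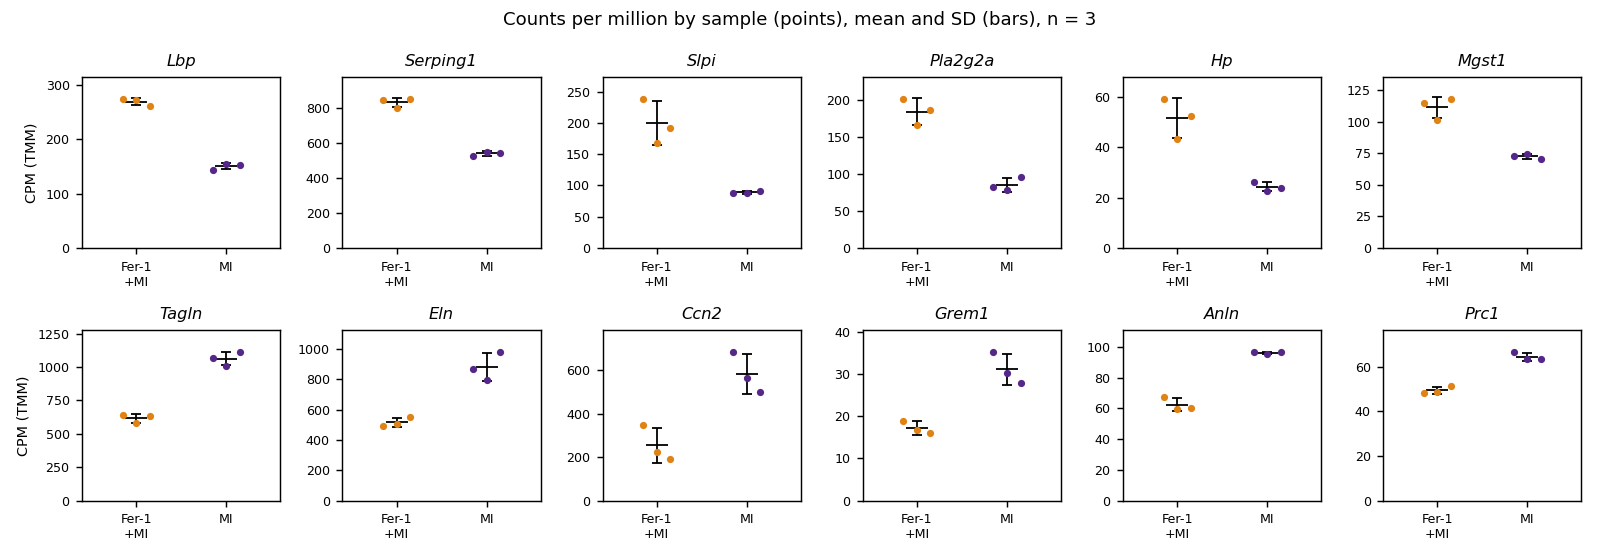
CPM of 12 genes in each Fer-1+MI and MI sample (points), with group mean and SD (bars, n = 3), each axis from 0. Lbp, Serping1, Slpi, Pla2g2a, Hp and Mgst1 are higher in all Fer-1+MI samples than in any MI sample, and Tagln, Eln, Ccn2, Grem1, Anln and Prc1 are lower in all of them.

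Targets of YAP, the co-activator that enters the nucleus of stretched and spread cells to act with TEAD factors, had 5 of 10 tested lower and none higher (median -0.20). Of 4 genes of the YAP pathway itself, Tead3 was lower, and its model overlaps Rpl10a on the opposite strand. The count over these 14 genes was 6 (42.9% called, against 5.36% of all genes tested). It was 3 without replicate 3 of Fer-1+MI and 3 without replicate 2 of MI. Ccn2 (connective tissue growth factor) was at 347, 225 and 192 CPM in Fer-1+MI, against 683, 566 and 501 CPM in MI (-1.20 ± 0.21, adjusted p = 0.014, edgeR). Its groups did not overlap, and the adjusted p was 0.0605 without replicate 2 of Fer-1+MI and 0.154 in a fit of the 6 samples alone. Amotl2, an inhibitor of YAP and its target, was at 109.97, 112 and 95.1 CPM in Fer-1+MI, against 146, 148 and 129 CPM in MI (-0.42 ± 0.07). The receptor tyrosine kinase Axl fell by 0.22 on the log2 scale, a call lost without replicate 2 of Fer-1+MI or replicate 3 of MI. Ccn3, a relative of Ccn2 that is not on the list, was at 127, 124 and 123 CPM in Fer-1+MI, against 192, 196 and 207 CPM in MI (-0.67 ± 0.04, adjusted p = 7.09e-08).

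Promoters were read from mouse RefSeq (GRCm38.p6), from 250 bases before to 50 after the gene start, matched by symbol since the files' identifiers are of rat. The TEAD motif GGAATG, searched on both strands, was in 10 of 11 matched YAP list members (90.9%), against 14.6% of 27025 promoters. Most of the list was chosen as targets of YAP, so a high share follows from the choice. Of the 5 matched members that were lower 4 held it (80%). Amotl2 and Axl are shown because both are called members with the motif, in capitals. Amotl2 holds it on the opposite strand, as CATTCC, 65 to 60 bases before the start, and Axl 233 to 228 bases before it.
Amotl2, chr9:102717554-102717853, plus strand: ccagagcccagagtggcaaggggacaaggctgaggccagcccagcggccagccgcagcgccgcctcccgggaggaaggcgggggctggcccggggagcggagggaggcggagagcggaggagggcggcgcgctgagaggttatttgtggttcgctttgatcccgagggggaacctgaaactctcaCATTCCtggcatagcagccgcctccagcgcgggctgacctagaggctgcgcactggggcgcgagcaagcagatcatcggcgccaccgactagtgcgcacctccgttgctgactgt
Axl, chr7:25788684-25788983, minus strand: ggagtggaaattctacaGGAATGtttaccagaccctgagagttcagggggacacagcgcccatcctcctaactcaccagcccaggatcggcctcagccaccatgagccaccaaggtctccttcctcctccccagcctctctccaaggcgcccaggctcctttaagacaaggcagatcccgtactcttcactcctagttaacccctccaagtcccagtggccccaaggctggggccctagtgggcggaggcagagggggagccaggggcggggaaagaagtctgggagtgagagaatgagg

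Ligands of the TGF-beta and BMP family, of which the TGF-beta branch drives scar formation, were lower in 4 of 9 tested, and none was higher. Of all 33 pathway members 7 were lower and 1 higher (24.2% called, against 5.36% of all genes tested, median -0.09). The lower count was 4 without replicate 3 of Fer-1+MI. Tgfb3 was at 113, 101 and 99.6 CPM in Fer-1+MI, against 147, 146 and 141 CPM in MI (-0.47 ± 0.06, adjusted p = 0.000103, edgeR). The BMP antagonist Grem1 was at 19.0, 16.6 and 16.03 CPM in Fer-1+MI, against 35.1, 30.2 and 27.8 CPM in MI (-0.85 ± 0.10), and the BMP ligand Gdf6 fell by 0.80 on the log2 scale. Of 6 binding proteins of insulin-like growth factors, 2 were lower (Igfbp2 and Igfbp6) and 2 higher (Igfbp4 and Igfbp5). With their ligands and receptors, 5 of 10 genes were called (50%, against 5.36% of all genes tested). The rise of Igfbp5 lost its call without replicate 2 or 3 of Fer-1+MI, or without replicate 1 or 3 of MI.

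All 32 mitosis genes tested had a log2 fold change below 0, with a median of -0.32. Of these 18 passed (56.2%, against 5.36% of all genes tested). The count was 7 without replicate 2 of Fer-1+MI, 11 without replicate 1 of MI and 9 without replicate 3 of MI. Of 33 DNA replication genes, 11 were lower and none higher (33.3% called, median -0.25). Their count was 6 without replicate 2 of Fer-1+MI and 7 without either replicate 1 or replicate 3 of MI. By role, 9 of 12 spindle and cytokinesis genes, 5 of 11 genes of chromatin and mitotic exit, 4 of 9 kinases and cyclins and 3 of 6 genes of nucleotide supply were lower.

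Anln (anillin, a scaffold of the cleavage furrow) was at 67.2, 59.4 and 60.2 CPM in Fer-1+MI, against 96.5, 95.4 and 96.4 CPM in MI (-0.63 ± 0.05, adjusted p = 1.02e-06, edgeR). Kif23, a motor of the central spindle, was at 17.0, 16.5 and 18.1 CPM in Fer-1+MI, against 24.6, 24.8 and 26.7 CPM in MI (-0.56 ± 0.08). The spindle crosslinker Prc1 was at 48.3, 48.6 and 51.4 CPM in Fer-1+MI, against 66.5, 63.3 and 63.6 CPM in MI (-0.38 ± 0.05). These 3 genes act in cytokinesis, and the groups did not overlap for any of them. In the replication list, Fen1, which trims Okazaki fragments, fell by 0.46 on the log2 scale. Rrm2, the small subunit of ribonucleotide reductase, was at 26.8, 27.5 and 26.7 CPM in Fer-1+MI, against 34.4, 37.7 and 34.0 CPM in MI (-0.39 ± 0.07). Mcm5, a subunit of the replicative helicase, was at 29.8, 27.3 and 31.3 CPM in Fer-1+MI, against 40.1, 39.5 and 39.3 CPM in MI (-0.43 ± 0.07). Rrm1, the large subunit of the reductase, fell by 0.24 on the log2 scale. Sham means were 43.5 CPM for Anln, 36.2 CPM for Prc1 and 29.7 CPM for Mcm5.

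The cell-cycle homology region motif (TTTGAA, both strands), a promoter element of late cell cycle genes, was in 20 of the 26 mitosis genes with a matched promoter (76.9%), in 12 of 16 matched members that were lower and in 18.1% of all promoters. Anln and Prc1 are shown as called members that hold it, in capitals. In Anln it occurs on both strands, 22 to 27 and 29 to 34 bases into the transcript, and in Prc1 it spans the start.
Anln, chr9:22389157-22389456, minus strand: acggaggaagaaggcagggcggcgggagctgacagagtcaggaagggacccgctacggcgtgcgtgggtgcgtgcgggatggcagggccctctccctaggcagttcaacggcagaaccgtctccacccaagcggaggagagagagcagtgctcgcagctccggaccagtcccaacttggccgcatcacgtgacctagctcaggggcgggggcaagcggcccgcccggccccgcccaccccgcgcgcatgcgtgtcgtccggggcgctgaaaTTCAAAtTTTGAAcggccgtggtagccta
Prc1, chr7:80294201-80294500, plus strand: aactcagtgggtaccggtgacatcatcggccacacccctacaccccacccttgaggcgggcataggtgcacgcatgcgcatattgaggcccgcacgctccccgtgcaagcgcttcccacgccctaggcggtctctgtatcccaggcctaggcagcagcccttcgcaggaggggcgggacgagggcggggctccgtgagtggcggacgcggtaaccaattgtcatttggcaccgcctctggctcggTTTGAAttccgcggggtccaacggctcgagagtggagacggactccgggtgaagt

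An E2F motif (TTTGGCGC, TTTCCCGC, TTCCCGCC or TTTCGCGC, both strands, overlaps allowed) was in 16 of 28 matched DNA replication genes (57.1%), in 7 of the 11 members that were lower and in 3.57% of all promoters. Of the 26 matched mitosis genes 2 held it, and of the 28 matched replication genes 4 held the cell-cycle homology motif. Mcm5 holds overlapping matches 153 to 142 bases before the start, and Rrm1 a single match 67 to 60 bases before it, both in capitals. A match describes the letters and is not a measured binding site. The YAP, mitosis and replication lists hold genes of the kind these motifs are known from. A share above that of all promoters therefore says nothing of ferrostatin-1. Among lower members the share was 80% for TEAD, 75% for the cell-cycle homology motif and 63.6% for E2F. Among all tested members it was 90.9%, 76.9% and 57.1%. The part of the motifs in the falls was not tested. Of the 6 motifs searched, the other 3 were the CArG box (bound by SRF), the antioxidant response element TGACNNNGC and the sterol regulatory element, each on both strands. The CArG box was in 2 of 13 matched genes of the contractile list with its regulators (15.4%), against 1.57% of all promoters. These were Myl9, which was lower, and the regulator Srf, which did not pass. Of the 7 matched members called, 1 held it (14.3%). The antioxidant element was in 10 of 36 matched NRF2 and antioxidant genes (27.8%), against 12.5%, and the sterol element in 0 of 18 matched cholesterol synthesis genes, against 0.0851%. The contractile and NRF2 lists too hold genes of the kind their motifs are known from, so these shares say nothing of ferrostatin-1.
Mcm5, chr8:75109259-75109558, plus strand: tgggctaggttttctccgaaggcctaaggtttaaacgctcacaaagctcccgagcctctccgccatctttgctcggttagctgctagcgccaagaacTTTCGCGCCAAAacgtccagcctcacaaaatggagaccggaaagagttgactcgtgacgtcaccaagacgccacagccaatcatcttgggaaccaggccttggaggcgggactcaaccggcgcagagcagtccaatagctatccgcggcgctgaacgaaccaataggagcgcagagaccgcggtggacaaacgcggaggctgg
Rrm1, chr7:102441445-102441744, plus strand: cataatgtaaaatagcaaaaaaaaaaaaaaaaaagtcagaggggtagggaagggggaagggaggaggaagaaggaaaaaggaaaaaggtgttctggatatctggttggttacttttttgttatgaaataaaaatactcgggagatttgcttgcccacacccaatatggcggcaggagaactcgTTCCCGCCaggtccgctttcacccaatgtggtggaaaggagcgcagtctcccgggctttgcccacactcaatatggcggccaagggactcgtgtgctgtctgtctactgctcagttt

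Of 29 genes of ferroptosis tested, 3 were higher and 2 lower (17.2% called, against 5.36% of all genes tested), with a median of 0.04. The lower count was 1 without replicate 2 of Fer-1+MI or replicate 1 of MI, and 0 without replicate 3 of either group. Of 11 defence genes 1 was higher and 1 lower, and of 13 genes that supply lipid substrates 1 was higher. Gpx4, the central defence enzyme, was at 63.3, 58.1 and 62.6 CPM in Fer-1+MI, against 62.7, 56.4 and 48.3 CPM in MI (0.14 ± 0.16, adjusted p = 0.718, edgeR), and its model overlaps Sbno2 on the opposite strand. Slc7a11, the cystine importer, was at 16.2, 15.0 and 17.6 CPM in Fer-1+MI, against 13.2, 15.2 and 12.5 CPM in MI (0.25 ± 0.10, adjusted p = 0.181). The groups overlapped for both genes. Gclc, which starts glutathione synthesis, was at 247, 231 and 225 CPM in Fer-1+MI, against 212, 203 and 196 CPM in MI (0.20 ± 0.05, adjusted p = 0.0226). Its call was lost without replicate 1 or 2 of Fer-1+MI or without replicate 2 or 3 of MI.

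Lpcat3, which places polyunsaturated chains into phospholipids, was at 81.2, 80.3 and 81.2 CPM in Fer-1+MI, against 69.9, 71.8 and 68.4 CPM in MI (0.21 ± 0.04, adjusted p = 0.00692, edgeR). Acsl4, which activates these fatty acids, was at 129, 123 and 125 CPM in Fer-1+MI, against 118, 106 and 114 CPM in MI. Its samples did not overlap, and the difference stood just outside the threshold (0.16 ± 0.05, adjusted p = 0.0541, between 0.0217 and 0.186 over the alternatives). Ptgs2, the cyclooxygenase often read as a marker of ferroptosis, was at 300.1, 283 and 276 CPM in Fer-1+MI, against 223, 262 and 291 CPM in MI (adjusted p = 0.794), with a Sham mean of 19.2 CPM. Chac1, which degrades glutathione and is also read as a marker, was at 5.72, 3.14 and 3.89 CPM in Fer-1+MI, against 7.69, 6.51 and 7.50 CPM in MI (-0.77 ± 0.22, adjusted p = 0.0498). The call of Chac1 was lost under 8 of 16 alternatives, among them every omission of a single library except replicate 1 of Fer-1+MI.

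**Figure D3:**
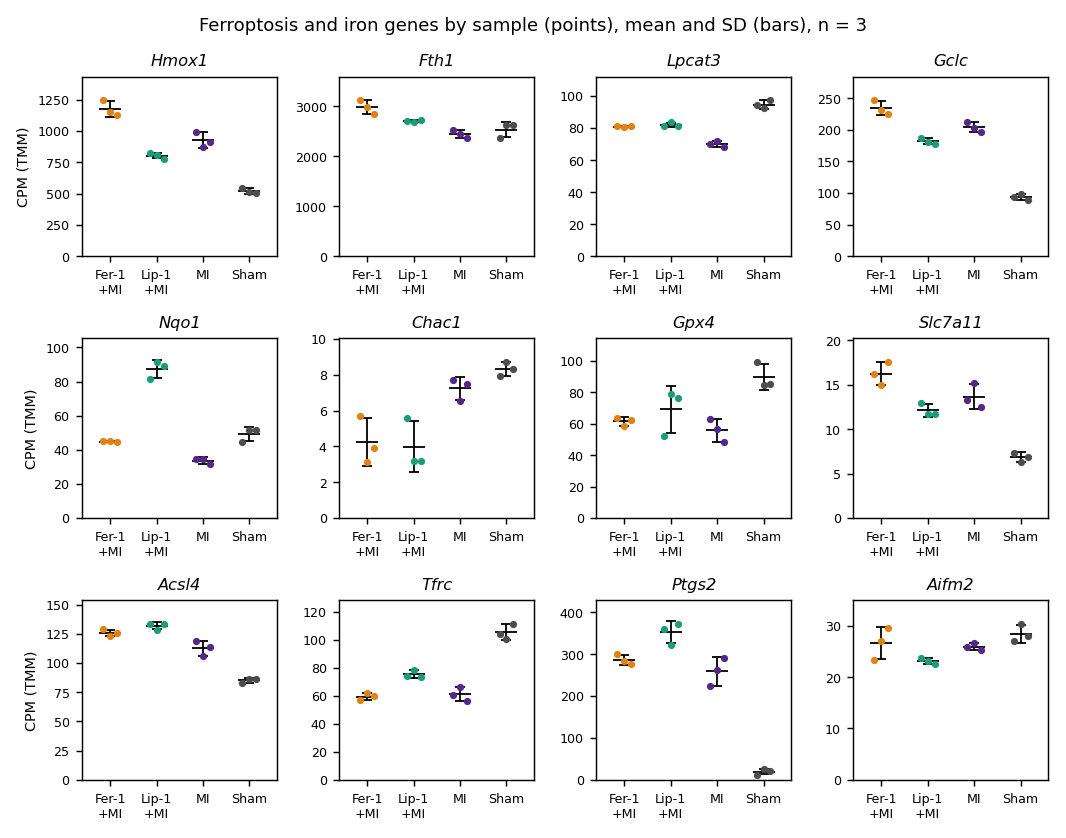
CPM of 12 ferroptosis, iron and antioxidant genes in each sample (points) of Fer-1+MI, Lip-1+MI, MI and Sham, with mean and SD (bars, n = 3), each axis from 0. Hmox1, Fth1, Lpcat3, Gclc and Nqo1 are higher in all Fer-1+MI samples than in any MI sample, while Gpx4, Slc7a11, Tfrc, Ptgs2 and Aifm2 overlap between these groups.

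Iron handling genes were higher in 4 of 37 tested and lower in 1 (13.5% called, against 5.36% of all genes tested, median 0.11). Lipocalin 2 (Lcn2), which binds bacterial iron carriers, was at 3642, 2929 and 3061 CPM in Fer-1+MI, against 1993, 1941 and 1955 CPM in MI (0.71 ± 0.07, adjusted p = 6.23e-05, edgeR). Ceruloplasmin (Cp), the ferroxidase that aids iron export, was at 261, 243 and 278 CPM in Fer-1+MI, against 186, 169 and 179.7 CPM in MI (0.55 ± 0.06). Ferritin heavy chain (Fth1) was at 3123, 2981 and 2835 CPM in Fer-1+MI, against 2529, 2446 and 2355 CPM in MI (0.29 ± 0.05, adjusted p = 0.00115). Each of the 3 was higher in all Fer-1+MI samples. The Fth1 model overlaps Best1 on the opposite strand, and Best1 itself was counted at 1184, 1050 and 975 CPM in Fer-1+MI, against 1046, 914 and 831 CPM in MI. The transferrin receptor Tfrc was at 56.7, 61.8 and 59.6 CPM in Fer-1+MI, against 60.7, 66.5 and 56.2 CPM in MI (-0.04 ± 0.06, adjusted p = 0.784). Ftl1 and Slc40a1, the ferritin light chain and the iron exporter, did not pass (adjusted p = 0.413 and 0.182).

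Hmox1, haem oxygenase, was at 1246, 1147 and 1128 CPM in Fer-1+MI, against 992, 869.8 and 915 CPM in MI (0.34 ± 0.05, adjusted p = 0.000486, edgeR). The mean was 803 CPM in Lip-1+MI and 520.4 CPM in Sham. Nqo1, a quinone reductase, was at 45.2, 45.0 and 44.3 CPM in Fer-1+MI, against 34.7, 34.8 and 31.4 CPM in MI (0.42 ± 0.07), with a mean of 87.4 CPM in Lip-1+MI. Both are targets of NRF2, the factor that switches on antioxidant genes. Of 44 NRF2 and antioxidant genes tested 11 were higher and 1 lower (27.3% called, against 5.36% of all genes tested, median 0.07). By role 4 of 7 glutathione transferases, 5 of 16 NRF2 targets and 2 of 15 peroxidases and dismutases were higher. Mgst1, a transferase of membranes, was at 115, 102 and 118 CPM in Fer-1+MI, against 72.8, 74.2 and 70.7 CPM in MI (0.62 ± 0.07, adjusted p = 1.94e-05). Gsta4, which conjugates aldehydes of lipid peroxidation to glutathione, was at 34.0, 33.9 and 35.3 CPM in Fer-1+MI, against 25.3, 24.9 and 23.1 CPM in MI (0.49 ± 0.07). The secreted peroxidase Gpx3 rose by 0.30 ± 0.04 (log2).

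Of 4 sterol efflux genes 3 were higher. With the lipogenesis genes, 4 of 12 were higher (33.3%, against 2.29% of all genes tested). Abca1, the exporter of cholesterol to apolipoproteins, was at 227, 219.5 and 225 CPM in Fer-1+MI, against 182, 172 and 172 CPM in MI (0.35 ± 0.05, adjusted p = 0.000114, edgeR), and Apoe and Abcg1 rose by 0.32 and 0.42 (log2). Of 19 cholesterol synthesis enzymes 4 were lower and none higher. They were the only calls among the 26 genes of that list (15.4%, against 5.36% of all genes tested). Msmo1, a sterol methyl oxidase, was at 31.4, 24.5 and 22.9 CPM in Fer-1+MI, against 39.1, 38.2 and 37.0 CPM in MI (-0.54 ± 0.09). Idi1, an earlier enzyme, fell by 0.42 on the log2 scale. The models of Idi1, Lpcat3, Cp and Sqstm1 each overlap a gene on the opposite strand (Wdr37, Emg1, Hps3 and Mrnip), and the strand setting of counting is not known. The mean of Msmo1 was 65.9 CPM in Lip-1+MI and 50.9 CPM in Sham.

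Of 41 lysosome genes 10 were higher and none lower (24.4% called, against 5.36% of all genes tested). The median was 0.12, with 37 of 41 above 0. The count was 6 without either replicate 2 or replicate 3 of Fer-1+MI, 2 without replicate 3 of MI, and 17 with DESeq2. Gaa, the enzyme that degrades glycogen in lysosomes, was at 198, 202 and 185 CPM in Fer-1+MI, against 163, 164 and 163 CPM in MI (0.26 ± 0.04, adjusted p = 0.00125, edgeR). Of 22 autophagy genes 5 were higher (22.7%, against 2.29% of all genes tested), and 3 without replicate 3 of MI. They included the receptor Sqstm1 at 633, 619 and 611 CPM in Fer-1+MI, against 512, 509 and 517 CPM in MI (0.28 ± 0.04), the starting kinase Ulk1 (0.41 ± 0.06) and the mitophagy kinase Pink1 (0.34 ± 0.05).

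Targets of ATF4, the factor of the amino acid stress response, were lower in 7 of 19 tested (36.8%, against 3.07% of all genes tested). The median was -0.23, with 18 of 19 below 0. The count was 3 without replicate 2 of Fer-1+MI, 4 without replicate 1 of MI and 3 without replicate 3 of MI. The 7 that fell were Phgdh, Psat1, Shmt2, Mthfd2, Aldh18a1, Slc7a5 and Chac1, of which the first 5 make amino acids or carry the folate units tied to serine, Slc7a5 imports amino acids and Chac1 degrades glutathione. Phgdh, the first enzyme of serine synthesis, was at 43.2, 38.8 and 45.8 CPM in Fer-1+MI, against 58.6, 54.9 and 61.4 CPM in MI (-0.45 ± 0.07, adjusted p = 0.000354, edgeR). Aldh18a1, which starts proline synthesis, was at 18.5, 20.1 and 24.6 CPM in Fer-1+MI, against 31.3, 30.0 and 30.5 CPM in MI (-0.53 ± 0.10). The amino acid carrier Slc7a5 fell by 0.34 on the log2 scale. None of 21 endoplasmic reticulum stress genes passed by edgeR or DESeq2, and 2 (9.52%) had an unadjusted p under 0.05, against 18.4% of all genes tested.

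**Figure D4:**
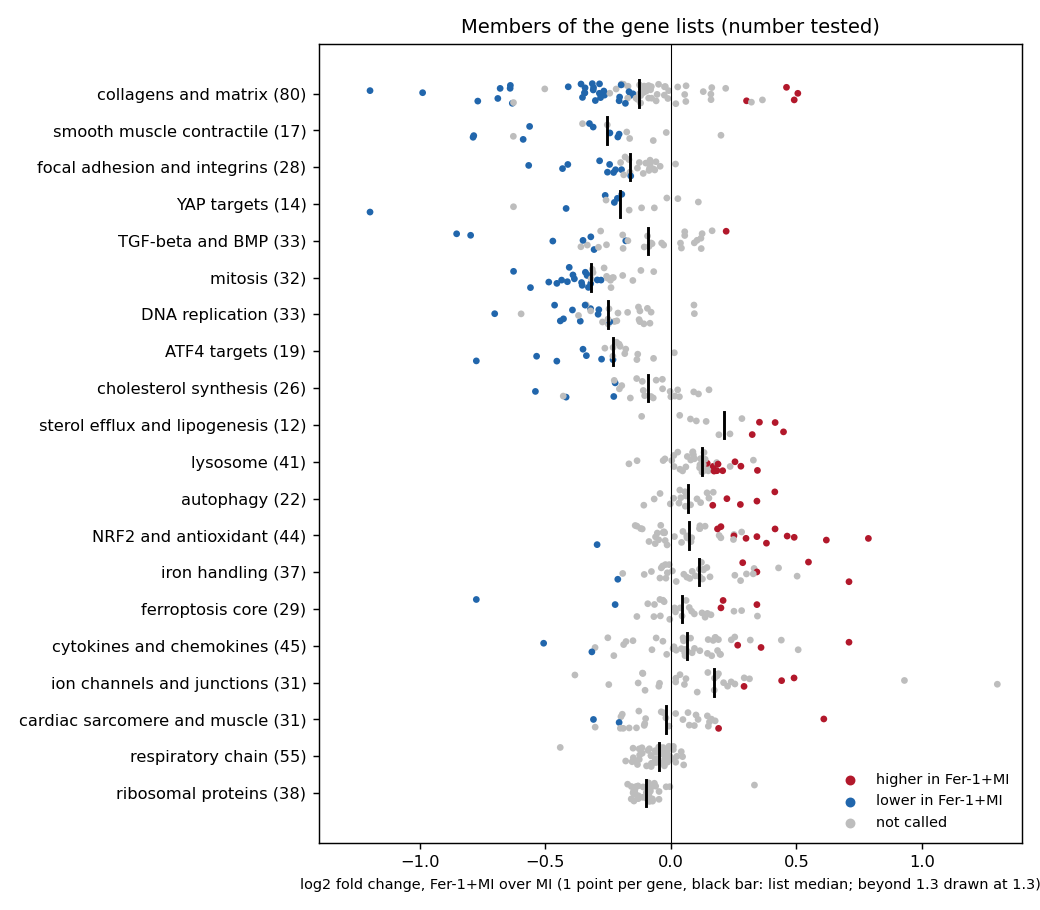
Log2 fold change of Fer-1+MI over MI (horizontal axis) for each tested member of 20 gene lists (1 point per gene, coloured where called), with the list median as a black bar. Points of mitosis, DNA replication, ATF4 targets and contractile genes lie mostly left of 0, those of lysosome and sterol efflux mostly right of it, and respiratory chain and ribosomal proteins have no coloured point.

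Of 31 sarcomere and muscle genes of the heart 2 were higher and 2 lower (12.9% called, against 5.36% of all genes tested). The higher count was 1 without replicate 2 or 3 of Fer-1+MI or replicate 1 or 3 of MI. The lower count was 1 without replicate 2 of Fer-1+MI or replicate 1 of MI, and 0 without replicate 3 of Fer-1+MI. Myh6 was at 7921, 8949 and 7852 CPM in Fer-1+MI, against 6760.4, 8046 and 7541 CPM in MI (0.15 ± 0.06, adjusted p = 0.198, edgeR). Lrrc10, a protein of heart muscle, was at 14.2, 18.2 and 15.4 CPM in Fer-1+MI, against 11.7, 10.4 and 9.31 CPM in MI (0.61 ± 0.10, adjusted p = 0.00129), with a Sham mean of 55.0 CPM. Nppa, the atrial natriuretic peptide raised in a strained ventricle, was at 4305, 4518 and 3855 CPM in Fer-1+MI, against 5335, 5454 and 4884 CPM in MI (-0.31 ± 0.06, adjusted p = 0.00651). Without replicate 1 of both groups, its adjusted p was 0.0678. For the related peptide Nppb the samples did not overlap either, at 870.2, 649 and 568 CPM in Fer-1+MI, against 1037, 950.2 and 934 CPM in MI (-0.49 ± 0.14, adjusted p = 0.103), and its adjusted p was 0.000444 without replicate 1 of Fer-1+MI. The vasoconstrictor Edn1 fell by 0.65 on the log2 scale and the natriuretic peptide clearance receptor Npr3 by 0.52.

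Of 14 natriuretic and stress genes 3 were lower (21.4%, against 3.07% of all genes tested), and 6 without replicate 1 of Fer-1+MI. In the sarcoplasmic reticulum, calsequestrin 1 (Casq1), a calcium buffer, was at 55.6, 67.3 and 67.5 CPM in Fer-1+MI, against 84.2, 103 and 101 CPM in MI (-0.60 ± 0.11, adjusted p = 0.00869, edgeR). The calcium pump Atp2a2 was called higher (0.22 ± 0.06, adjusted p = 0.0362) although its samples overlapped, and the call was lost without replicate 2 of Fer-1+MI and without replicate 1 or 3 of MI. Of 31 ion channel and junction genes 3 were higher and none lower (9.68% called, against 5.36% of all genes tested). The count was 5 without replicate 1 of Fer-1+MI, 1 without replicate 2 of Fer-1+MI and 8 without replicate 2 of MI. Abcc9, a subunit of ATP-sensitive potassium channels, was at 251, 273 and 265 CPM in Fer-1+MI, against 166, 199 and 196 CPM in MI (0.49 ± 0.06). The connexins Gja1 and Gja5 did not pass (adjusted p = 0.63 and 0.567). None of 55 respiratory chain and Krebs cycle genes and none of 38 ribosomal protein genes passed by edgeR. At an unadjusted p under 0.05, 8 respiratory chain genes (14.5%) and 17 ribosomal protein genes (44.7%) were lower and none was higher, against 18.4% of all genes tested in either direction. With DESeq2, 0 and 3 passed, and 37 of the 38 ribosomal protein genes had a log2 fold change below 0. Without replicate 1 of Fer-1+MI 2 of the first and 8 of the second list were lower. Of 33 genes of fatty acid use 3 were higher (9.09%, against 2.29% of all genes tested). The count was 1 without replicate 2 or 3 of Fer-1+MI or replicate 3 of MI, and 5 without replicate 1 of Fer-1+MI. Among them the lipoprotein lipase Lpl was at 616, 620.1 and 686 CPM in Fer-1+MI, against 538, 560.3 and 541 CPM in MI (0.23 ± 0.04).

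Of 45 cytokines, chemokines and effectors 3 were higher and 2 lower (11.1% called, against 5.36% of all genes tested). Il1b was at 211, 203 and 189 CPM in Fer-1+MI, against 226, 236 and 220.2 CPM in MI (-0.18 ± 0.23, adjusted p = 0.765, edgeR), and its Sham mean was 8.71 CPM. Every Fer-1+MI sample lay below every MI sample. The difference was smaller than its error of 0.23, which comes from the fit of all groups, Sham and Lip-1+MI included. That error is therefore not the spread within Fer-1+MI and MI alone. Over the alternatives the adjusted p of Il1b lay between 0.108 and 0.887. Il6 and Nos2 did not pass (0.15 ± 0.14 and 0.25 ± 0.34). Csf1, the growth factor of macrophages, was at 366, 375 and 357 CPM in Fer-1+MI, against 475, 454 and 437 CPM in MI (-0.31 ± 0.04, adjusted p = 0.000234). The alarmin Il33 was at 14.9, 13.8 and 14.02 CPM in Fer-1+MI, against 17.6, 20.0 and 23.0 CPM in MI (-0.51 ± 0.10). Gsdmd, the pore protein of pyroptosis, fell by 0.35 on the log2 scale and was the only one of 21 cell death genes to pass. That is 4.76%, near the 5.36% of all genes tested, so the count says nothing particular of cell death genes. Among immediate early genes Egr1 was at 238, 274 and 265 CPM in Fer-1+MI, against 137, 176 and 164 CPM in MI (0.71 ± 0.08), Egr3 rose by 0.68 and the AP-1 member Fosl1 fell by 0.39 (log2). These 3 were the ones to pass among 23 tested immediate early genes (13%, against 5.36% of all genes tested). The lower count was 3 without replicate 1 of Fer-1+MI or replicate 2 of MI.

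Markers of other cell types are given as summed FPKM over each list. Fibroblast markers summed to 3870 to 4140 in Fer-1+MI and 4130 to 4480 in MI. Of 11 tested 4 were lower (Col1a1, Vim, Thy1 and S100a4) and Dcn was higher (45.5% called, against 5.36% of all genes tested). Called or not, 5 of the 11 had a log2 fold change above 0 and 6 below, with a median of -0.08. S100a4 lost its call under 7 of 16 alternatives. Endothelial markers summed to 180 to 185 in Fer-1+MI and 165 to 178 in MI. Of 14 tested the receptor Kdr rose by 0.28 while Flt1 fell by 0.38 on the log2 scale (14.3% called). Macrophage markers summed to 639 to 660 in Fer-1+MI and 623 to 715 in MI, with 640 to 689 in Sham. Of 22 tested 2 were lower (C1qa and C1qc, 9.09%, against 3.07% of all genes tested). Both calls were lost in the fit of 6 samples and without replicate 2 or 3 of Fer-1+MI or replicate 1 of MI. C1qa lost its call under 7 of 16 alternatives and C1qc under 10. Neutrophil markers summed to 2850 to 3450 in Fer-1+MI and 1870 to 1880 in MI, of which nearly all was Lcn2. The other 5 tested members did not pass, with log2 fold changes of 0.56 for Cxcr2, 0.52 for Camp, 0.04 for Csf3r, -0.26 for Mmp8 and -0.37 for S100a8. Of the 4 members found but below the filter, Ngp was at 0 counts in all 6 samples, Mpo and Elane were at 0 in Fer-1+MI and at 5 or fewer in each MI sample, and S100a9 reached 12 counts in Fer-1+MI and 6 in MI. Epicardial markers summed to 107 to 114 in Fer-1+MI and 121 to 126 in MI. Of 10 tested 3 were lower (30%, against 3.07% of all genes tested). The count was 1 without replicate 2 of Fer-1+MI, replicate 3 of Fer-1+MI or replicate 3 of MI. Krt8 was at 22.5, 21.3 and 18.3 CPM in Fer-1+MI, against 30.5, 33.6 and 31.2 CPM in MI (-0.62 ± 0.09). Atrial markers summed to 3890 to 4490 in Fer-1+MI and 4760 to 5390 in MI, which is mostly Nppa. Of 8 tested 2 were lower, Nppa and the myosin light chain Myl4 (25%, against 3.07% of all genes tested). The count was 1 without replicate 2 or 3 of Fer-1+MI or replicate 3 of MI. The log2 fold change of Myl4 lay between -0.35 and -0.27 over the alternatives. The part of these shifts in the gene changes was not tested.

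**Figure D5:**
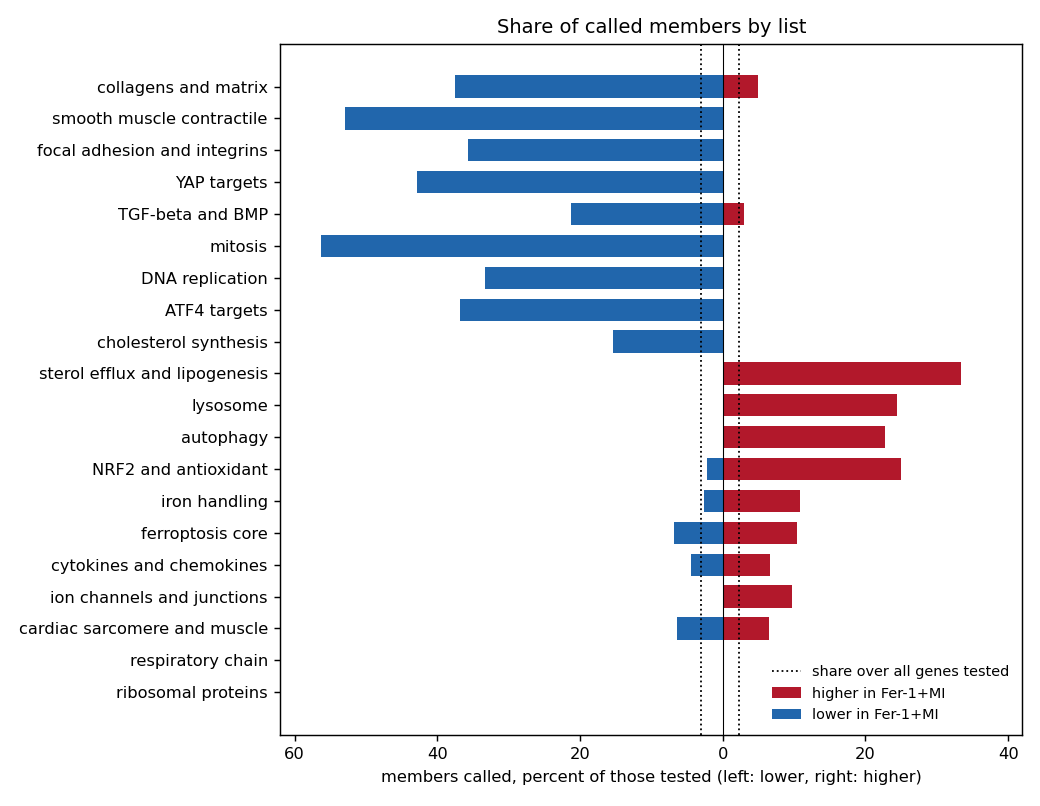
Percent of tested members called lower (left) or higher (right) in Fer-1+MI for the same 20 lists, with dotted lines at the shares over all genes tested, 3.07% lower and 2.29% higher. Mitosis, contractile genes, the matrix and the YAP list extend furthest past the left line, and lysosome, sterol efflux and NRF2 genes furthest past the right line. All other lists except respiratory chain and ribosomal proteins, which have no call, also pass the left or the right line.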

How the data were processed

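RNA of 12 ventricle samples was sequenced from stranded poly(A) libraries, made from RNA with an integrity number over 7, per the labels' protocols. The authors deposited whole-number counts per gene and, in a second table, FPKM per gene, which the authors scaled for gene length and depth. Per the submitters' processing notes, the tools were HISAT2 2.2.1 and StringTie 2.1.6 beside cutadapt 1.9, FastQC, edgeR and DESeq2, with no order stated. The genome build and the strand setting of counting are not given in the sources used here. Symbols were joined by gene identifier from the FPKM table.

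Of 32623 genes, 16910 passed filterByExpr at a minimum count of 10 and a minimum total of 15. Counts of all 12 samples were scaled by TMM and tested with robust quasi-likelihood F tests in edgeR 4.0.16 (R 4.3.3), with group as the only term, 8 residual degrees of freedom, Benjamini-Hochberg adjustment and a threshold of 0.05. Log2 fold changes are given with SE, as Fer-1+MI over MI. A floor of 3 counts equals 0.066 CPM in the smallest library and covers counting error only.

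The comparison, the 47 gene lists (1124 entries, of which 51 were not found) and the tests were chosen with earlier results of these data known. Named genes are the 15 largest rises and 15 largest falls of at least 1 CPM without overlap, the 15 smallest p, up to 4 members per list and direction, and a set of ferroptosis, iron, cytokine and heart genes. Mitochondrial ferritin is not analysed here. Best1, the genes given as values in marker lists and the marker genes of the tissue check were added after their values were seen. Alternatives were a fit of 6 samples, DESeq2 1.42.0, library size scaling, other filters, the replicate number as a block, omission of each library, and limma 3.58.1 on log2 FPKM. The omission of replicate 1 from both groups was added after seeing the data. The test was checked on simulated counts with changes of at least 2-fold only. That check does not cover smaller changes, and 754 of the 907 calls differed by less than 1.5-fold. All replicate pairs differed by more than sampling noise.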

Additional observations from a re-analysis of the deposited data

How the results depend on the processing

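No gene called between Fer-1+MI and MI changed its direction under any alternative that tested it (up to 23 of the 907 were not tested in one). A fit of the 6 samples alone called 550 genes, 223 higher and 327 lower in Fer-1+MI, of which 535 were among the 907. DESeq2 called 615 genes higher. The limma fit on log2(FPKM + 1) with no filter called 552 genes, of which 292 were lower. At least 2-fold, limma called 6 genes on log2(FPKM + 1), 6 with no filter and 21 on log2(FPKM + 0.1), against 34, and a pseudocount lowers the folds of low genes. Leaving out each library in turn gave 569 to 1071 calls, 230 to 477 higher and 331 to 594 lower, and 26 to 53 at least 2-fold. The highest of these came without replicate 1 of Fer-1+MI, and the cause was not tested. Scaling by library size alone called 911 genes and moved the median of all genes to 0.018, so that 51.8% of calls were higher, against 42.8%. With the replicate number as a block, 1152 genes were called (518 higher, 634 lower), including 903 of the 907. Same-numbered samples deviated together by little, with correlations of 0.0879, 0.0651 and 0.0249, and each Fer-1+MI sample correlated best with the MI sample of its own number. Without replicate 1 of both groups 663 genes were called. The lists that kept their counts within 1.5-fold under each omission of 1 library included matrix (lower members), contractile, NRF2, sterol efflux and cholesterol synthesis genes. Other lists, among them cell death genes, did so too.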

Other observations

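Of 19 genes of oxygen sensing and its response 2 were higher in Fer-1+MI than in MI (Vhl and Epas1) and 1 lower (15.8% called, against 5.36% of all genes tested). The higher count was 1 without replicate 1 of Fer-1+MI and 0 without replicate 2 or 3 of Fer-1+MI or replicate 1 of MI, and the lower count was 2 without replicate 1 of Fer-1+MI. P4ha1, a collagen prolyl hydroxylase induced by low oxygen, was at 567, 545 and 562 CPM in Fer-1+MI, against 662, 641 and 627 CPM in MI (-0.21 ± 0.04, adjusted p = 0.00896, edgeR). Of 24 glycolysis genes 2 were higher and 1 lower (12.5% called), and the lower count was 2 without replicate 3 of MI. Aldoc was at 58.9, 65.0 and 59.5 CPM in Fer-1+MI, against 43.6, 49.2 and 40.9 CPM in MI (0.46 ± 0.07), the lactate carrier Slc16a1 rose by 0.29, and the muscle enolase Eno3 fell by 0.49 on the log2 scale. Of 16 heat shock genes 1 was higher and 2 lower (18.8% called). The higher call was lost without replicate 1, 2 or 3 of Fer-1+MI or replicate 1 or 3 of MI. The lower count was 1 without replicate 2 of Fer-1+MI or replicate 3 of MI, and 0 without replicate 3 of Fer-1+MI or replicate 1 of MI. The chaperone Cryab was at 743, 765 and 698 CPM in Fer-1+MI, against 937, 864 and 792 CPM in MI (-0.23 ± 0.06, adjusted p = 0.0208), a call lost without replicate 3 of Fer-1+MI or replicate 1 of MI.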
